A study of Homo sapiens with 8 samples.

Results

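The comparison described here asks what 30 min of UV-A light did to the transcriptome of breast cancer cells that already held the compound 1-S. It is made of 2 of the 8 RNA libraries of the series, chosen by their labels: 1-S UV-A (n = 1 library) and 1-S dark (n = 1 library), kept unlit. Both came from MDA-MB-231 cells, an established triple-negative breast cancer line, at passage 32 to 34 in the second of 2 rounds of culture. Both were incubated for 24 h with 10 µM 1-S, (2-dibenzothienylmethyl)triphenylphosphonium. The lamp had 8 bulbs that emit mainly between 325 and 375 nm, and 600000 cells were plated per well. Vehicle UV-A and vehicle dark cells (1% DMSO without compound) were cultured in each round. 1-SO UV-A and 1-SO dark cells belong to round 1, at passage 8, and held 10 µM of the oxo counterpart of 1-S for the same 24 h. The lit and the unlit cells sat on separate plates, so plate and light cannot be told apart, and each side is a single library.

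A triphenylphosphonium group is a lipophilic cation, and such cations collect in mitochondria along the membrane potential. UV-A is absorbed by some aromatic compounds and by cell components, and it can give rise to reactive oxygen species. Messages for secreted and membrane proteins are translated at the endoplasmic reticulum, where a hydrophobic stretch of the growing protein directs the ribosome to the membrane, while messages for cytosolic and most nuclear or mitochondrial proteins are translated on free ribosomes.

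Library totals of round 2 ran from 19.1 to 22.6 M reads. The 1-S UV-A library was the shallowest of that round (19.1 M) against 21.8 M reads in 1-S dark. It held a read for 23114 genes against 24644 in 1-S dark, and the mitochondrial genome took 2.4% of its reads against 2.87%. A count of 0 allows up to 3 reads, which is 0.157 CPM in 1-S UV-A and 0.137 CPM in 1-S dark. Intervals from read counts cover counting error only. Among 19 marker genes, those of the line were present in both libraries, for example VIM (the filament protein vimentin) at 249.9 FPKM in 1-S UV-A and 219 FPKM in 1-S dark. ESR1, PGR and CDH1, absent or low in this line, stayed under 0.2 FPKM in both. ERBB2 was measured at 9.78 FPKM in 1-S UV-A and 10.9 FPKM in 1-S dark. Of the markers of other cell types, DCN and KRT5 had 0 reads, and PTPRC, CD3E, PECAM1, CDH5, LUM and KRT14 stayed under 0.2 FPKM. COL1A1, a fibroblast collagen, was measured at 6.39 FPKM in 1-S UV-A and 7.09 FPKM in 1-S dark.

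No gene was called for UV-A in cells holding 1-S when the spread came from all 8 libraries. Of 12696 genes tested with the quasi-likelihood test of edgeR, 0 were called at an adjusted p under 0.05, which is 0% of the genes, while 305 had an unadjusted p under 0.05 and the smallest adjusted p was 0.146. DESeq2 on the same terms also called 0 and gave 74 unadjusted p under 0.05. The spread in that fit rests on how far the UV-A response of vehicle cells differed between the rounds (1 residual degree of freedom, shared across genes), and it amounts to a biological coefficient of variation of 12%. The authors' deposited table of the same comparison also holds 0 genes with an adjusted p under 0.05, and its smallest adjusted p is 0.554.

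The genes with the lowest p on the lower side were long messages for large cell-surface and matrix proteins. FAT4, an atypical cadherin of planar cell polarity (chr4:125316399-125492932, + strand, GRCh38), was measured at 1.51 FPKM in 1-S UV-A against 3.31 FPKM in 1-S dark. Its levels were 3.69 FPKM in vehicle UV-A and 3.67 FPKM in vehicle dark. FAT4 thus stood at one level in both vehicle libraries and lowest in 1-S UV-A, with a fitted log2 ratio of -1.14 ± 0.21 (SE; edgeR adjusted p = 0.146).

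COL12A1, a collagen that decorates collagen fibrils (chr6:75084326-75206051, - strand), was measured at 4.84 FPKM in 1-S UV-A against 9.67 FPKM in 1-S dark, and at 12.3 FPKM in both vehicle UV-A and vehicle dark. Its log2 ratio was -1.0 ± 0.19 (SE; edgeR adjusted p = 0.146). FAT1, a further atypical cadherin (chr4:186587783-186726722, - strand), had 12 FPKM in 1-S UV-A against 24.2 FPKM in 1-S dark, and 40.8 FPKM in vehicle UV-A against 41.2 FPKM in vehicle dark (log2 ratio -1.02 ± 0.24 SE, edgeR adjusted p = 0.597). For all 3 of these genes the step between the 1-S libraries had no counterpart between the vehicle libraries.

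NOTCH2, a receptor that releases a transcriptional activator once its ligand binds (chr1:119911553-120069626, - strand), was measured at 18.3 FPKM in 1-S UV-A against 36 FPKM in 1-S dark, and at 29.5 FPKM in vehicle UV-A against 31.2 FPKM in vehicle dark. NOTCH2 has near-identical partial copies elsewhere on the same chromosome, so its count is uncertain. LNPEP, a membrane aminopeptidase that travels with glucose transporter vesicles (chr5:96935394-97037515, + strand), had 3.5 FPKM in 1-S UV-A against 6.66 FPKM in 1-S dark, and 10.9 FPKM in vehicle UV-A against 12.1 FPKM in vehicle dark. TENM3, a teneurin that guides neuronal wiring (chr4:182143987-182803024, + strand), had 6.4 FPKM in 1-S UV-A against 11 FPKM in 1-S dark, and 10.3 FPKM in each of the vehicle libraries. The log2 ratios of NOTCH2, LNPEP and TENM3 were -0.98 ± 0.22, -0.93 ± 0.20 and -0.79 ± 0.19 (SE), with edgeR adjusted p of 0.563, 0.297 and 0.727. LNPEP and TENM3 overlap other genes with reads, and it is not stated whether reads were counted by strand. Counting error alone was small, since the 1-S UV-A library held 474 reads of FAT4, the fewest of the 6 genes.

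**Figure D1:**
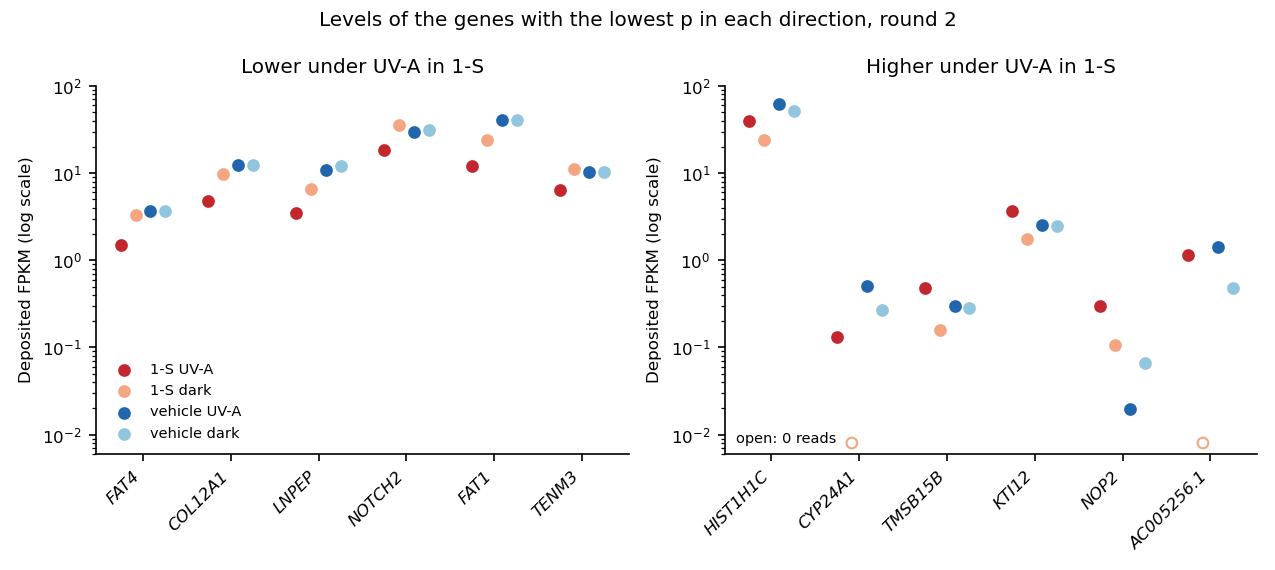
Deposited FPKM (log axis) of the genes with the lowest p on each side, in the 4 libraries of round 2; each point is 1 library and open points mark 0 reads. In 1-S UV-A the 6 genes on the left sit below the 3 other libraries, for example FAT4 at 1.51 FPKM, while the genes on the right are mostly under 4 FPKM, apart from HIST1H1C at 39.3 FPKM.

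Of the proteins these 6 messages encode, 5 have a window of 19 residues with a mean hydropathy of at least 1.6, and COL12A1 falls short of it. The coding bases below, from GENCODE 29 transcripts (GRCh38), show for each gene the window of 19 codons with the highest mean Kyte-Doolittle hydropathy, in capitals, with 9 bases on each side. HIST1H1C, the leading gene on the higher side, is shown for contrast.
FAT4: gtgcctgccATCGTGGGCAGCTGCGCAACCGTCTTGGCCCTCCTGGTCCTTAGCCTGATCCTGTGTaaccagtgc
COL12A1: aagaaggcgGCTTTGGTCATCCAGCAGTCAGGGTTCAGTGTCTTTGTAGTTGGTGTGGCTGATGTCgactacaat
LNPEP: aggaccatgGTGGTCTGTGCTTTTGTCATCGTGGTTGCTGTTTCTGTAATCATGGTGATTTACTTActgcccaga
NOTCH2: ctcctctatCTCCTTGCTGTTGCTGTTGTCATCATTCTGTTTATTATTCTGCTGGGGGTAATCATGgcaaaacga
FAT1: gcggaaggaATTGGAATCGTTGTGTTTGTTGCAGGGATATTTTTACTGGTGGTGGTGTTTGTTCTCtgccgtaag
TENM3: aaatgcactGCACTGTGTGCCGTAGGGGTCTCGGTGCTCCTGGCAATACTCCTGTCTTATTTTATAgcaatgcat
HIST1H1C: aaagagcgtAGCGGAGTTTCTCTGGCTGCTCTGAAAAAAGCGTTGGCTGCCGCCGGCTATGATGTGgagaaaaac

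The window of NOTCH2 (residues 1681 to 1699 of 2471, chr1:119922343-119922417, - strand) had the highest mean hydropathy of these genes, 3.48. FAT1 followed with 3.35 (residues 4185 to 4203, chr4:186596928-186597002, - strand), LNPEP with 3.14 (residues 112 to 130, chr5:96979443-96979517, + strand) and FAT4 with 2.65 (residues 4508 to 4526, chr4:125490335-125490409, + strand). The TENM3 window had 2.53 (residues 311 to 329) and lies across an exon junction between chr4:182628823 and 182653778 on the + strand. COL12A1, a secreted collagen, reached 1.57 (residues 2445 to 2463, across a junction between chr6:75117503 and 75119073 on the - strand), and HIST1H1C reached 0.82 (residues 55 to 73 of 213, chr6:26056201-26056275, - strand).

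On the higher side the genes with the lowest p mostly had few reads in round 2. HIST1H1C, a linker histone, was the exception, at 39.3 FPKM in 1-S UV-A against 24 FPKM in 1-S dark, and at 61.8 FPKM in vehicle UV-A against 51.7 FPKM in vehicle dark (log2 ratio 0.70 ± 0.22 SE; edgeR adjusted p = 1). It was thus higher under UV-A in both pairs, and highest without compound. KTI12, whose yeast counterpart serves transfer RNA modification, had 3.7 FPKM in 1-S UV-A against 1.74 FPKM in 1-S dark (121 and 65 reads). NOP2, a nucleolar RNA methyltransferase, had 27 reads in 1-S UV-A against 11 reads in 1-S dark, and at most 0.302 FPKM in any library of round 2 against at least 20.8 FPKM in each library of round 1, so it passed the filter through round 1 alone. TMSB15B, a thymosin that binds actin monomers, had 50 reads in 1-S UV-A against 19 reads in 1-S dark. CYP24A1, which inactivates vitamin D, and the unnamed transcript AC005256.1 each had 10 reads in 1-S UV-A and 0 reads in 1-S dark, at least 3.82-fold higher as a share of all reads when the 0 is set at 3 reads per library. The edgeR adjusted p was 1 for all 5 of these genes, and KTI12 and TMSB15B overlap other genes with reads.

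How many genes were called depended on where the spread was taken from. With round 2 alone and its vehicle UV-A and vehicle dark libraries treated as 1 group, edgeR called 77 genes for UV-A in 1-S: 75 lower, 0.591% of the genes tested, and 2 higher, 0.0158%. The 2 higher genes were NFKBIZ, a nuclear regulator of NF-kB target genes (11.9 FPKM in 1-S UV-A, 7.75 FPKM in 1-S dark), and RHOB, a small GTPase of actin and endosomes (120 FPKM in 1-S UV-A, 85.4 FPKM in 1-S dark). With the spread taken from vehicle dark and 1-SO dark of round 1 as 1 group, it called 253 higher (1.99%) and 682 lower (5.37%), and those 935 held all 77. In both fits calls on the lower side were more numerous. Both fits compare the same 2 libraries and differ in the spread used. The overlap and the shared direction are therefore no separate result.

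The 75 lower genes of the round 2 fit had log2 ratios between -1.14 and -0.47, while the same genes had a median of -0.04 between the vehicle libraries (range -0.55 to 0.22), and 69 of the 75 stayed within 0.25 of 0 there. That fit took its spread from the same vehicle libraries, so genes with a large vehicle ratio were unlikely to be called and the small vehicle ratios are no separate result. Of the 72 that have a coding sequence, 63 (87.5%) encode a protein with a window of mean hydropathy of at least 1.6, against 32.3% of the 11222 coding genes tested. The other 9 included COL12A1, FBN1, THBS1, FN1, COL4A1, COL5A1, NFAT5 and AKAP9, named after their values were seen. The first 6 of these are secreted matrix proteins. Of the 2 genes called higher, RHOB also reached 1.6 (highest window 1.695) and NFKBIZ did not (1.221). The median transcript length of the 72 lower genes was 8013 nt, against 2997 nt for the coding genes tested. Of the 72, 72.2% were of 6000 nt or more, against 14.8% of those tested. The 3 non-coding genes included the nuclear RNA MALAT1, at 126 FPKM in 1-S UV-A against 196 FPKM in 1-S dark, and NEAT1, the scaffold of paraspeckles, at 15.2 FPKM in 1-S UV-A against 28.8 FPKM in 1-S dark. MALAT1 differed less between vehicle UV-A (48.6 FPKM) and vehicle dark (53.8 FPKM), and NEAT1 was lower under UV-A there as well (6.25 and 9.27 FPKM). In round 1 MALAT1 was higher in vehicle UV-A (97.6 FPKM) than in vehicle dark (30 FPKM).

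The 75 lower genes are illustrated by 6 examples chosen after their values were seen. IGF2R, the receptor that carries enzymes to lysosomes, was measured at 10.7 FPKM in 1-S UV-A against 18.9 FPKM in 1-S dark (log2 ratio -0.82 ± 0.11 SE in the round 2 fit, edgeR adjusted p = 0.000522). SEL1L, the adaptor of the ubiquitin ligase that clears misfolded proteins from the endoplasmic reticulum, had 25.2 FPKM in 1-S UV-A against 41.3 FPKM in 1-S dark (-0.72 ± 0.11 SE, edgeR adjusted p = 0.00273 in the round 2 fit). MIA3, which loads collagen into transport vesicles, had 11.3 FPKM in 1-S UV-A against 17.7 FPKM in 1-S dark. UGGT1, the folding sensor for glycoproteins, had 7.23 FPKM in 1-S UV-A against 11.3 FPKM in 1-S dark. The growth factor receptor EGFR had 40.8 FPKM in 1-S UV-A against 59.2 FPKM in 1-S dark, and MET, the receptor of hepatocyte growth factor, had 20 FPKM against 28.4 FPKM.

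Families defined by gene symbol, chosen after their values were seen, are given as descriptions. All 8 laminins, the heterotrimers of basement membranes, had log2 ratios below 0 for UV-A in 1-S (median -0.34, range -0.61 to -0.15), against 5 of 8 and a median of -0.11 for UV-A in vehicle cells of round 2. Of 16 collagens 15 were below 0 (median -0.35), against 13 of 16 and a median of -0.09 in vehicle. Of 12 semaphorins, guidance ligands, 11 were below 0 (median -0.36), against 10 of 12 and a median of -0.07 in vehicle. Of 12 integrins 10 were below 0 (median -0.29), against 12 of 12 and a median of -0.18 in vehicle. Of 7 plexins 6 were below 0 (median -0.24), against 5 of 7 and a median of -0.02 in vehicle. Of 9 LRP receptors 8 were below 0 (median -0.35, vehicle -0.03), and so were all 5 Eph receptors (median -0.30, vehicle 0.04). All 8 sodium and calcium pump subunits were below 0 (median -0.41, vehicle -0.08). Of 182 solute carriers, the membrane transporters, 127 were below 0 (median -0.12, vehicle 0.00). For UV-A in vehicle cells of round 1 the median was -0.20 for laminins, -0.55 for collagens, -0.28 for Eph receptors and -0.28 for integrins. It lay between -0.10 and 0.06 for semaphorins, LRP receptors, plexins and pumps. For UV-A in 1-SO all 8 laminins (median -0.70), 14 of 16 collagens (median -1.34) and 11 of 12 integrins (median -0.77) were below 0. Medians there were -0.29 for semaphorins, -0.34 for LRP receptors, -0.35 for Eph receptors and -0.16 for plexins. They were -0.06 for pumps and 0.10 for solute carriers. Some families of cytosolic or mitochondrial proteins lay on the other side of 0. Of 39 proteasome subunits 33 were above 0 (median 0.10), as were 57 of 73 mitochondrial ribosomal proteins (median 0.12) and 37 of 42 translation initiation factors (median 0.11), with vehicle medians of 0.06, 0.07 and 0.05. The median transcripts of these families were of 1591, 1369 and 2198 nt. Coding genes under 1500 nt without a window of at least 1.6 had a median of 0.11 (27.5% below 0). For those from 1500 to under 3000 nt it was 0.07 (32.8% below 0). Whether these families differ from genes of matched length was not tested. The 4 KMT2 histone methyltransferases, nuclear proteins with long messages, were all below 0 (median -0.41, vehicle -0.08). Over all genes tested 6110 of 12696 were below 0 and the median was 0.00.

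**Figure D2:**
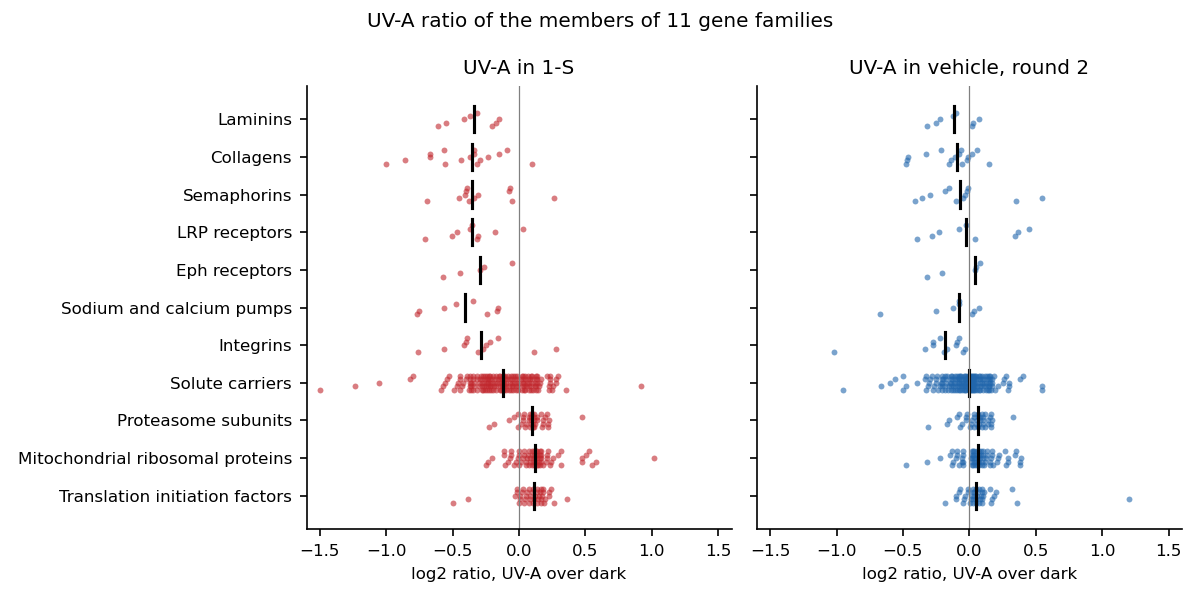
Log2 ratio of UV-A over dark for each member (points) of 11 gene families, in cells holding 1-S (left) and in vehicle cells of round 2 (right); black bars are medians, and 1 solute carrier beyond -1.5 is drawn at the axis end. Laminins and pumps lie wholly below 0 on the left, where all 8 members of each are negative.

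The same division showed over all coding genes. Coding genes whose protein has a hydrophobic window of at least 1.6 had a median log2 ratio of -0.07 for UV-A in 1-S, and 63.4% of the 3622 were below 0. Those without one had a median of 0.04, and 39.4% of the 7600 were below 0. Longer messages also had lower ratios within each class. For transcripts of 6000 nt or more the medians were -0.16 with a hydrophobic window (79.5% of 635 genes below 0) and -0.06 without (66.6% of 1024). For transcripts under 1500 nt they were 0.02 with one (43.9% of 446 below 0) and 0.11 without (27.5% of 1244). For UV-A in vehicle cells of round 2 the 8 medians lay between -0.03 and 0.03, with the hydrophobic class lower at each length. In round 1 the order by length was the opposite, with and without compound. In genes without a hydrophobic window the median for UV-A in 1-SO was -0.14 under 1500 nt and 0.10 at 6000 nt or more, and for UV-A in vehicle cells of round 1 it was -0.18 and 0.12. These are medians over genes within pairs of single libraries, and genes are not independent replicates.

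**Figure D3:**
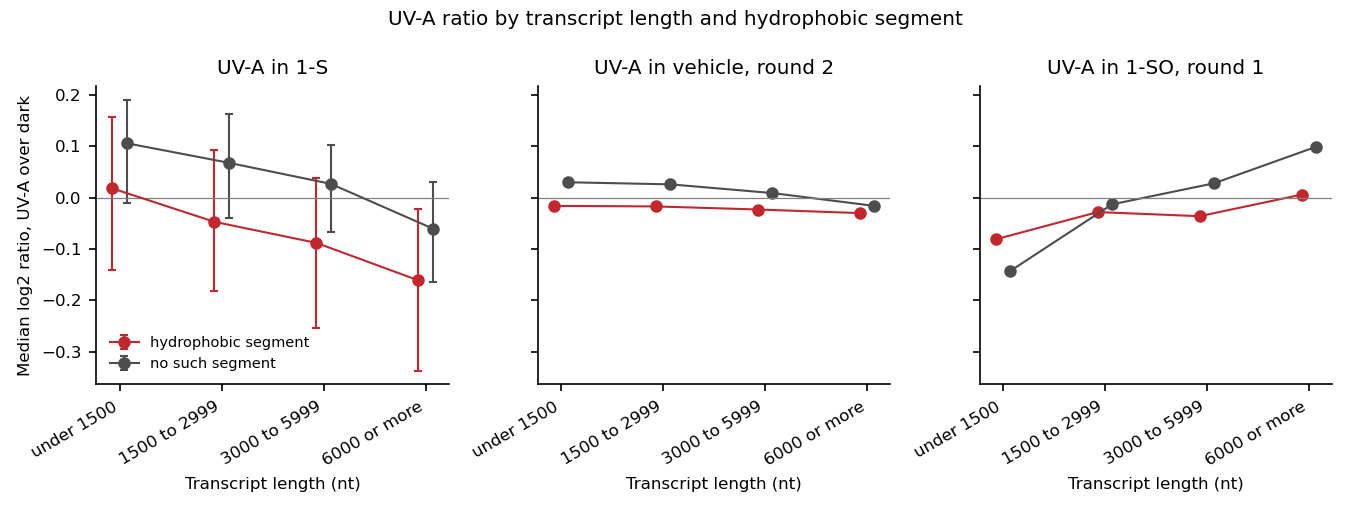
Median log2 ratio of UV-A over dark by transcript length for coding genes with (red) and without (grey) a window of mean hydropathy of at least 1.6, for UV-A in 1-S, in vehicle cells of round 2 and in 1-SO; bars in the first panel are quartiles over genes. In 1-S both lines fall with length and the red line is lower at each length, from 0.02 to -0.16.

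The ratio also differed between classes of hydrophobic segments, but not in order of their number. Median transcript length ran from 2473.5 to 3594.5 nt over these classes and was not held constant. A segment is here a run of windows with a mean hydropathy of at least 1.6. Proteins without any had a median of 0.04, and the 434 with a single one within the first 60 residues, where signal peptides lie, had -0.10 (68.9% below 0). The 1071 with a single one elsewhere had -0.02 (53.5% below 0), the 1508 with 2 to 6 had -0.08 (62.8%), and the 584 with 7 or more had -0.18 (80.1%). The corresponding medians for UV-A in vehicle cells of round 2 ran from -0.03 to 0.01. In round 1 the class with a single segment in the first 60 residues was also low, at -0.07 for UV-A in 1-SO and -0.08 for UV-A in vehicle, while the class with 7 or more was at 0.03 in both.

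Gene lists chosen with earlier results of these data known were set against the same fit, which called 0 members of any of the 31 lists. The extracellular matrix list stood lowest among the lists of secreted or nuclear-encoded proteins: 19 of its 20 measured members were below 0, with a median of -0.31. COL4A2, a basement membrane collagen, was measured at 11.2 FPKM in 1-S UV-A against 20.2 FPKM in 1-S dark, while both vehicle libraries held more (27.3 FPKM with UV-A, 27.8 FPKM dark). ITGA2, the collagen-binding integrin chain, had 22.7 FPKM in 1-S UV-A against 38.3 FPKM in 1-S dark. FN1, fibronectin, had 11.7 FPKM in 1-S UV-A against 18 FPKM in 1-S dark, and COL4A1 had 3.25 FPKM against 5.15 FPKM. In the round 2 fit 6 of the 20 were called lower, against 0.591% of all genes, and with the spread of the round 1 dark pair 14 of 20 were, against 5.37%. The list's median was -0.14 for UV-A in vehicle cells of round 2, -0.31 for UV-A in vehicle cells of round 1 and -0.72 for UV-A in 1-SO.

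Chaperones and quality control of the endoplasmic reticulum mostly lay below 0 too. Of 20 members of the unfolded protein response list 15 were below 0, with a median of -0.23 against -0.03 in vehicle. HSPA5, the main chaperone of that compartment, was measured at 1219 FPKM in 1-S UV-A and 1716 FPKM in 1-S dark, against 319 FPKM in vehicle UV-A and 332 FPKM in vehicle dark. HYOU1, a further chaperone there, had 45.4 FPKM in 1-S UV-A against 63.4 FPKM in 1-S dark, and CANX, a lectin that folds glycoproteins, had 246 FPKM against 330 FPKM. SEL1L, HSPA5 and HYOU1 were the 3 members called lower in the round 2 fit, against 0.591% of all genes. HSPA5 in 1-S UV-A still stood well above both vehicle libraries. Of the 4 PDIA disulfide isomerases, all were below 0 (median -0.24).

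Messages made inside mitochondria mostly had ratios below 0, and those for their nuclear-encoded partners mostly above. Of the 13 mitochondrially encoded mRNAs 12 were below 0 for UV-A in 1-S, with a median of -0.36 against 0.10 for UV-A in vehicle cells of round 2, where 10 of 13 were above 0. MT-ND4, a subunit of complex I, was measured at 1757 FPKM in 1-S UV-A against 2451 FPKM in 1-S dark, and at 2552 FPKM in vehicle UV-A against 2669 FPKM in vehicle dark. MT-CYB, of complex III, had 533 FPKM in 1-S UV-A against 707 FPKM in 1-S dark, and 1078 FPKM in vehicle UV-A against 949 FPKM in vehicle dark. MT-ND6 had 71 FPKM in 1-S UV-A against 95.3 FPKM in 1-S dark, and MT-ND4L had 404 FPKM against 597 FPKM. The edgeR adjusted p was 1 for all 4 of these genes. Values are relative to the library total, and in bulk libraries fewer mitochondria per cell and less RNA per mitochondrion cannot be told apart. Of 50 nuclear respiratory chain genes 41 were above 0 (median 0.14, vehicle 0.03). Their median transcript was of 950 nt, and all coding genes under 1500 nt had a median of 0.09 (31.8% below 0). UQCRFS1, the iron-sulfur subunit of complex III, had 24.8 FPKM in 1-S UV-A against 20.4 FPKM in 1-S dark, and ATP5J of the ATP synthase had 8.26 FPKM against 6.5 FPKM. Of 19 genes of mitochondrial RNA and DNA maintenance 15 were above 0 (median 0.13), with TEFM, the elongation factor of mitochondrial transcription, lowest at 2.37 FPKM in 1-S UV-A against 3.44 FPKM in 1-S dark. Of 16 mitochondrial chaperones and proteases 15 were above 0 (median 0.10), for example TRAP1 at 5.31 FPKM in 1-S UV-A and 3.83 FPKM in 1-S dark.

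Cytosolic heat shock genes stood high in 1-S dark, with a median log2 difference from vehicle dark of 2.44. Of 20 cytosolic heat shock genes 17 were above 0 for UV-A in 1-S, but by a median of only 0.08, against 0.12 for UV-A in vehicle. DNAJB1, a partner of HSP70, had 2799 FPKM in 1-S UV-A and 2646 FPKM in 1-S dark, against 98 FPKM in vehicle UV-A and 88.9 FPKM in vehicle dark. HSPA1A, an inducible HSP70, had 801 FPKM in 1-S UV-A and 810 FPKM in 1-S dark, against 8.41 FPKM in vehicle UV-A and 8.39 FPKM in vehicle dark. HSPB8, a small heat shock protein, had the largest ratio of the list, with 3.81 FPKM in 1-S UV-A against 2.03 FPKM in 1-S dark (log2 ratio 0.90 ± 0.43 SE, edgeR adjusted p = 1). DNAJB1 and HSPA1A were added after their values were seen, and HSPA1A shares near-identical sequence with HSPA1B, so its count is uncertain. The step between 1-S and vehicle was in each case far larger than the step between light and dark.

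For ATF4 and its targets, the integrated stress response, 1-S dark also stood above vehicle dark (median log2 difference 1.94). Of 27 measured members 21 were above 0, with a median of 0.15 against 0.05 in vehicle. NUPR1, a stress-induced chromatin protein, had 9.54 FPKM in 1-S UV-A and 7.63 FPKM in 1-S dark, against 0.275 FPKM in vehicle UV-A and 0.437 FPKM in vehicle dark. PHGDH, the first enzyme of serine synthesis, had 19.2 FPKM in 1-S UV-A and 15.7 FPKM in 1-S dark. SLC7A11, the cystine importer, went the other way, with 34.2 FPKM in 1-S UV-A and 50.1 FPKM in 1-S dark, against 15.9 FPKM in vehicle UV-A and 16.6 FPKM in vehicle dark, and was called lower in the round 2 fit (edgeR adjusted p = 0.0142). Immediate early genes had a median of 0.20, with 22 of 29 above 0, for example JUNB at 149 FPKM in 1-S UV-A and 114 FPKM in 1-S dark and DUSP1, a phosphatase of MAP kinases, at 265 FPKM and 203 FPKM. With the spread of the round 1 dark pair 9 of the 29 were called higher, against 1.99% of all genes.

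**Figure D4:**
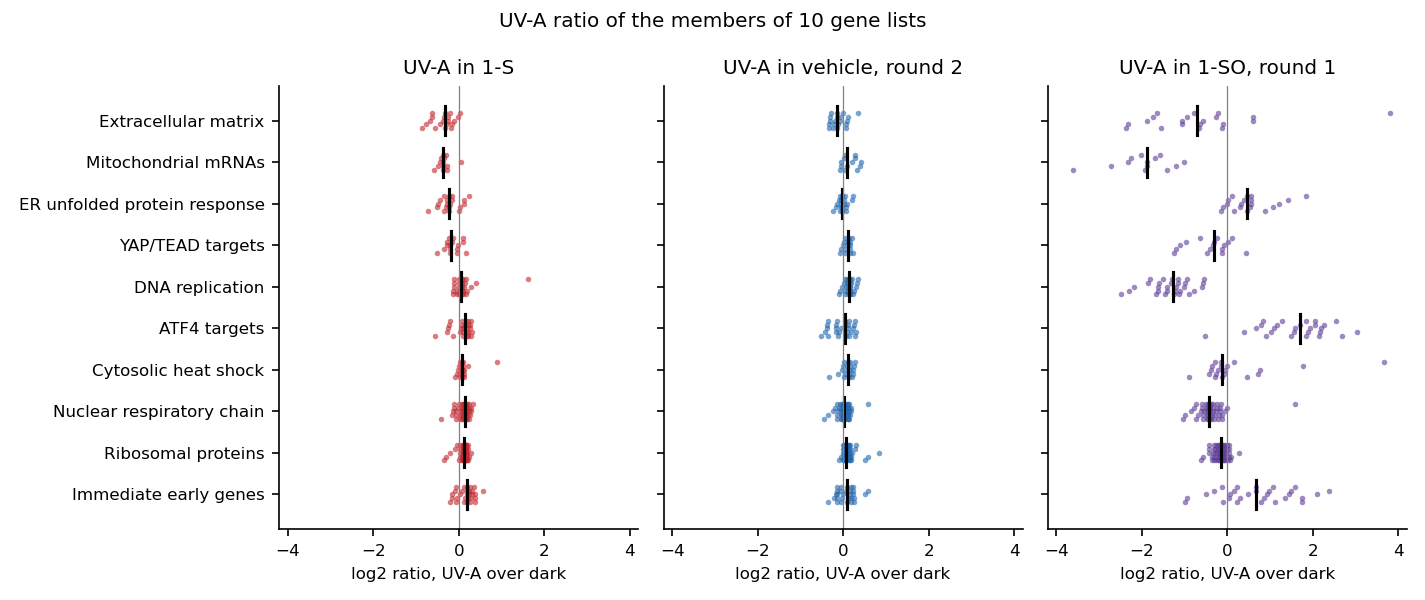
Log2 ratio of UV-A over dark for each measured member (points) of 10 gene lists, in cells holding 1-S, in vehicle cells of round 2 and in 1-SO; black bars are medians. In 1-S the medians run from -0.36 to 0.20, with matrix, mitochondrial and unfolded protein response genes to the left (medians -0.31, -0.36 and -0.23).

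Lists of translation and protein turnover lay slightly above 0. Coding genes under 1500 nt without a hydrophobic window had a median of 0.11, and the ribosomal proteins have a median transcript of 886 nt. Of 58 cytosolic ribosomal proteins 53 were above 0 (median 0.14, vehicle 0.06), for example RPLP1 at 169 FPKM in 1-S UV-A and 138 FPKM in 1-S dark. For UV-A in vehicle cells of round 1 the median was -0.47 for these ribosomal proteins and -0.32 for the nuclear respiratory chain genes, so vehicle cells of the rounds lay on opposite sides of 0. Of 23 ribosome biogenesis genes 19 were above 0, but the vehicle median (0.18) was larger than that in 1-S (0.07). The cell cycle lists lay no higher in 1-S than in vehicle, except for G1 regulators. The medians for UV-A in 1-S were 0.06 for 30 DNA replication genes, 0.07 for 30 mitosis genes, 0.05 for 15 G1 regulators and 0.18 for 10 replication-dependent histones. In vehicle cells of round 2 they were 0.14, 0.17, 0.00 and 0.31. E2F1, the S-phase transcription factor, had 17.1 FPKM in 1-S UV-A and 13.9 FPKM in 1-S dark, against 63.9 FPKM in vehicle UV-A and 62.2 FPKM in vehicle dark. CDC20, the mitotic exit activator, had 111 FPKM in 1-S UV-A and 96.9 FPKM in 1-S dark.

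DNA damage lists stayed near 0, and oxidative stress lists lay slightly above it. Of the antioxidant enzymes 13 of 16 were above 0, and of the NRF2 targets 17 of 22 were. All coding genes under 1500 nt had a median of 0.09 for UV-A in 1-S (31.8% below 0). For those from 1500 to under 3000 nt it was 0.04 (40.6% below 0). The antioxidant enzymes and the NRF2 targets have median transcripts of 1181 and 2233 nt. Their medians were 0.01 and 0.02 for UV-A in vehicle cells of round 2, and -0.27 and 0.43 in those of round 1. For UV-A in 1-S the median was 0.03 for 20 p53 targets and 0.02 for 25 DNA damage repair genes. It was 0.13 for 22 NRF2 targets, 0.19 for 16 antioxidant enzymes and 0.08 for 8 aryl hydrocarbon receptor targets. Catalase (CAT), which destroys hydrogen peroxide, had 22.4 FPKM in 1-S UV-A and 18.2 FPKM in 1-S dark. NQO1, a quinone reductase on both the NRF2 and the aryl hydrocarbon receptor list, had 64.1 FPKM in 1-S UV-A and 55.3 FPKM in 1-S dark. FAS, the death receptor on the p53 and apoptosis lists, had 1.82 FPKM in 1-S UV-A and 2.97 FPKM in 1-S dark (log2 ratio -0.71 ± 0.37 SE, edgeR adjusted p = 1). The 17 apoptosis regulators had a median of 0.03.

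Inflammatory and metabolic lists completed the set. The medians were 0.10 for 17 NF-kB and cytokine genes, 0.08 for 18 interferon-stimulated genes, 0.08 for 23 glycolysis genes, -0.04 for 19 hypoxia-type targets, -0.07 for 26 genes of cholesterol and fatty acid synthesis, -0.17 for 16 YAP and TEAD targets, 0.09 for 20 autophagy and lysosome genes, -0.07 for 6 metallothionein and zinc genes and 0.06 for 5 glucose-sensing arrestins and their regulators. PTGS2, the inducible cyclooxygenase, was measured at 7.8 FPKM in 1-S UV-A and 12 FPKM in 1-S dark, while CXCL2, a neutrophil attractant, had 8.14 FPKM in 1-S UV-A and 4.82 FPKM in 1-S dark. Of the YAP and TEAD targets 13 of 16 were below 0, against 2 of 16 for UV-A in vehicle cells of round 2. For UV-A in 1-SO 13 of 16 were below 0 as well (median -0.32). The median for UV-A in vehicle cells of round 1 was -0.12. CRIM1, a transmembrane protein of that list, had 37.5 FPKM in 1-S UV-A against 53.1 FPKM in 1-S dark, and CYR61, a secreted matrix protein and added after its value was seen, had 446 FPKM against 508 FPKM. CRIM1 was called lower in the round 2 fit. The cell line markers had a median of -0.01.

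Set against UV-A in vehicle cells, UV-A in 1-S gave 0 called genes of 12696 (0%; edgeR, smallest adjusted p = 0.786), with 272 at an unadjusted p under 0.05 and 0 called by DESeq2. The difference between these responses was -1.24 ± 0.26 (SE, log2) for FAT4, -1.04 ± 0.23 for COL12A1 and -0.96 ± 0.27 for NOTCH2. These genes were chosen by the p of their ratio in 1-S, which is part of this difference, so their values are no separate result. The test of the difference uses a vehicle response shared between the rounds. With the own vehicle libraries of round 2 and the spread of the round 1 dark pair it called 511 genes.

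At matched dose, time and light, the response of cells holding 1-S differed from that of cells holding 1-SO for 500 genes, in the single pair of compounds that the series allows. The difference (1-S minus 1-SO, edgeR adjusted p under 0.05) was above 0 for 316 genes (2.49% of those tested) and below 0 for 184 (1.45%). Compound and round changed together and cannot be told apart, and without the round as replicate block edgeR called 0. With limma-trend on deposited FPKM, a scaling that shifts the median of all genes by -0.11 for this difference, 193 lay above and 221 below. The filter on low values also let in genes through round 1 alone, among them POLA2, which was called. ALDOA had at most 0.239 FPKM in round 2, against 214 FPKM in 1-SO UV-A and 303 FPKM in 1-SO dark. LDHB had at most 0.616 FPKM in round 2, against 175 and 308 FPKM. ALDOA and LDHB were not called (edgeR adjusted p = 0.158 and 0.278).

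Several lists lay farther from 0 for UV-A in 1-SO than for UV-A in 1-S. The 13 mRNAs of the mitochondrial genome had medians of -0.36 for UV-A in 1-S and -1.89 for UV-A in 1-SO, and 8 of 13 were called for the difference. MT-ND6 had 71 FPKM in 1-S UV-A against 95.3 FPKM in 1-S dark, and 55.1 FPKM in 1-SO UV-A against 614 FPKM in 1-SO dark (difference 3.18 ± 0.29 SE, edgeR adjusted p = 3.54e-07). Of 30 DNA replication genes 21 were called higher for the difference, with medians of 0.06 in 1-S and -1.27 in 1-SO. This list already stood low in 1-S dark, with a median log2 difference from vehicle dark of -1.24. E2F1 had 17.1 FPKM in 1-S UV-A against 13.9 FPKM in 1-S dark, and 15.5 FPKM in 1-SO UV-A against 64.9 FPKM in 1-SO dark (difference 2.48 ± 0.37 SE, edgeR adjusted p = 0.000478). The ATF4 list had medians of 0.15 in 1-S and 1.70 in 1-SO, and 19 of 27 members were called lower for the difference. SLC7A11 had 34.2 FPKM in 1-S UV-A against 50.1 FPKM in 1-S dark, and 67.5 FPKM in 1-SO UV-A against 9.72 FPKM in 1-SO dark (difference -3.22 ± 0.40 SE, edgeR adjusted p = 7.09e-05). DESeq2 kept MT-ND6 but neither E2F1 (adjusted p = 0.356) nor SLC7A11 (adjusted p = 0.229). For UV-A in vehicle cells of round 1 the medians were 0.06 for the mitochondrial mRNAs, -0.68 for DNA replication and -0.08 for the ATF4 list. In that vehicle pair the log2 ratio was -0.07 for MT-ND6, -1.10 for E2F1 and 1.245 for SLC7A11. How much of each difference goes with the round was not tested.

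Of the 6 genes with the lowest p on the lower side, 3 were called for the difference, against 1.45% of all genes called below 0. The 6 were chosen by the p of their ratio in 1-S, which is part of this difference, so the count is no separate result. Of these 3 genes, DESeq2 and limma-trend kept NOTCH2 but not FAT4 or LNPEP. FAT4 had a log2 ratio of -1.14 for UV-A in 1-S and -0.06 for UV-A in 1-SO (difference -1.08, edgeR adjusted p = 0.0383). LNPEP had -0.93 in 1-S and 0.17 in 1-SO (difference -1.10, edgeR adjusted p = 0.0216). NOTCH2 had -0.98 in 1-S and 0.22 in 1-SO (difference -1.20, edgeR adjusted p = 0.0291). SEL1L also lay on opposite sides of 0, at -0.72 in 1-S and 0.56 in 1-SO (edgeR adjusted p = 0.0123). FAT1 was lower with both compounds, -1.02 in 1-S and -0.77 in 1-SO, and its difference of -0.25 had a 95% interval of -0.93 to 0.43. COL12A1 had a difference of -0.70 with an interval of -1.25 to -0.14 (edgeR adjusted p = 0.15). Among heat shock genes HSPA8 had a difference of 1.10 with an interval of 0.22 to 1.99 (edgeR adjusted p = 0.152).

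A fixed rule of size, a difference of at least 1 in log2(FPKM + 1), described the pair without a test. Of 12682 genes that reached 1 FPKM in either library 110 were higher in 1-S UV-A (0.867%) and 212 were lower (1.67%), against 97 (0.808%) and 110 (0.916%) of 12005 between the vehicle libraries of round 2. Only 3 of the 322 genes code for protein, and 244 are shorter than 200 bases, where a few reads make a high FPKM. The 3 were HIST1H4A, a core histone (11 reads in 1-S UV-A, 2 in 1-S dark), OCLM (15 and 57 reads) and AP000866.1 (10 and 42 reads). With a 95% exact binomial interval of the ratio that leaves out 1, 129 of the 322 remained.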

How the data were processed

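Poly(A) RNA of MDA-MB-231 cells was sequenced, and 1-S UV-A was set against 1-S dark. Counts were deposited as whole reads per gene, without normalization. Deposited FPKM values of round 2 equal the authors' counts divided by gene length and library total, which was tested on the files. The tables of comparisons that the authors deposited give log2 fold changes and p-values, per the file headers. Tools in the submitters' processing notes are STAR 2.5, HTSeq 0.6.1, edgeR 3.16.5, TopHat, STAR-Fusion and DESeq2, with hg38 and hg19 as builds. Their roles and the time from irradiation to lysis are not stated there. Coordinates are GRCh38.

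Genes entered the tests if 2 or more of the 8 libraries reached 1 FPKM. The quasi-likelihood test of edgeR 4.0.16 (R 4.3.3) used TMM factors within each round and Benjamini-Hochberg adjustment. Its terms were round (the replicate block, from the labels), light in vehicle cells and each compound library, which left 1 residual degree of freedom. Lone libraries are assumed to vary like the vehicle libraries. No label says that the rounds were biological replicates, so p-values measure only the spread between these libraries. Alternatives were median-of-ratios factors, no filter, DESeq2 1.42.0, limma-trend 3.58.1, no replicate block and other sources of spread. The fit was checked on simulated data. Genes named were the 6 with the lowest p in each direction and, from each list, examples among the 4 members with the largest absolute ratio. Genes of the round 2 fit and the families were picked after their values were seen. The members and lists were chosen with earlier results of these data known. Hydropathy (Kyte-Doolittle, 19 residues) was computed on the longest coding sequence of each gene in GENCODE 29, and was added after the data were seen. The result of 1 gene is not reported here.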

Additional observations from a re-analysis of the deposited data

Results flagged for a closer look

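The values below stand out because the test of the difference between the UV-A responses of 1-S and 1-SO (edgeR, adjusted p under 0.05) called them. Compound and round changed together and cannot be told apart, and without the round as replicate block edgeR called 0 genes. Over all genes 316 differences were above 0 (2.49% of those tested) and 184 below (1.45%). Most lists have between 15 and 30 measured members, so a single call in a list is near that share and is given as a count only.

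By list, the members called above 0 numbered 21 of 30 for DNA replication, 8 of 13 for mitochondrially encoded mRNAs, 4 of 30 for mitosis, 4 of 20 for extracellular matrix and 3 of 23 for glycolysis. There were 2 each for immediate early genes, G1 regulators, DNA damage repair and cell line markers. There was 1 each for mitochondrial chaperones, NF-kB and cytokines, ribosome biogenesis, hypoxia-type targets, cholesterol synthesis, metallothioneins, YAP targets, apoptosis regulators and antioxidant enzymes. The members called below 0 numbered 19 of 27 for ATF4 targets, 8 of 29 for immediate early genes, 6 of 22 for NRF2 targets and 4 of 20 each for the unfolded protein response, p53 targets and autophagy. There were 2 each for aryl hydrocarbon receptor targets and G1 regulators, and 1 each for heat shock, NF-kB and cytokines, glycolysis, arrestins, extracellular matrix and apoptosis regulators.

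Among named genes the log2 difference was above 0 for MT-ND6 (3.18), POLA2 (2.86), E2F1 (2.48), PRIM1 (2.22), MT-CYB (1.85), KRT18 (1.69), NEIL3 (1.58), CDC20 (1.36), TRAP1 (1.29), CDKN2C (1.18), MT1E (1.09) and MT-ND4L (1.01). It was below 0 for SLC7A11 (-3.22), NUPR1 (-1.74), SLC2A3 (-1.65), PTGS2 (-1.64), SEL1L (-1.27), NOTCH2 (-1.20), ARRDC3 (-1.20), LNPEP (-1.10) and FAT4 (-1.08). Of these 21 genes, 10 were no longer called with DESeq2 (4 more had no adjusted p there), 8 with limma-trend and 5 with median-of-ratios factors. POLA2 had 27 reads in 1-S UV-A and 10 reads in 1-S dark, and passed the filter on low values through round 1 alone.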

How the results depend on the processing

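Median-of-ratios factors changed no count by more than 1.5 times. For UV-A in 1-S, where 0 genes were called, no filter on low values gave 3 (FAT1, COL12A1 and FAT4), round 2 alone with the vehicle pair as 1 group gave 77, and the round 1 dark pair as 1 group gave 935; DESeq2, limma-trend and the fit without the replicate block gave 0. For the difference from UV-A in vehicle, where 0 were called, no filter gave 3, limma-trend gave 6 and the round 1 dark pair gave 511. For the difference from UV-A in 1-SO, where 500 were called, DESeq2 gave 114 and the fit without the replicate block gave 0. The round 2 fit called 1 member of the ATF4 list, 3 of the unfolded protein response list, 1 of the NRF2 list, 1 of the cholesterol list, 6 of the matrix list and 1 of the YAP list. For the size rule, where 322 genes passed, a pseudocount of 0.1 gave 581, a pseudocount of 5 gave 10, an FPKM of at least 1 in both libraries gave 33 and the counting interval gave 129. The cause was not tested, apart from the spread itself: the biological coefficient of variation was 12% in the model of all libraries, 6.95% in round 2 alone, 3.71% for the dark pair and 35.2% without the replicate block. Leaving out a vehicle library leaves no residual degree of freedom, so no such fit was made. No ratio of a named gene changed sign. A hydropathy threshold of 2.0, the deposited gene length in place of transcript length, and genes with 500 or more reads in 1-S dark, all chosen after seeing the data, kept the hydrophobic class lower at each length; the threshold of 2.0 widened the gap to the other coding genes to -0.18 between 3000 and 6000 nt and -0.20 at 6000 nt or more, against -0.12 and -0.10 with 1.6. Each side of the comparison is 1 library, and genes with few reads are limited by depth as well.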
